A study of Mus musculus with 16 samples.

Results

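Lymphoid tissue chemokines and receptors are the genes that gather B and T cells in lymph nodes and in lymph node-like aggregates of other organs. The 9 genes described here, Cxcl13, Ccl19, Ccl21a, Cxcr5, Ccr7, Lta, Ltb, Ltbr and Tnfsf13b, were chosen by their role in such tissue with age changes measured on these same arrays already known, so their AGED and MAT levels are a description and no p is given for them. An array feature was assigned to a gene when its accession belonged to that gene in the RefSeq annotation. Of the 9 genes, 8 had a matching probe and 1, Ccl21a, had none. All 10 probes of the 8 genes passed the filter on dim probes, which asks for a signal well above background on 4 or more arrays of 16, and the 8 genes were among the 26781 genes tested.

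As background, Cxcl13 is secreted by follicular stroma and draws B cells and follicular helper T cells through the receptor Cxcr5, while Ccl19 and Ccl21 draw T cells and dendritic cells through Ccr7. Lymphotoxin, made of the subunits encoded by Lta and Ltb, acts on stromal cells through the receptor encoded by Ltbr and keeps these chemokines expressed. Tnfsf13b encodes BAFF, a survival factor of B cells, and organised lymphoid aggregates have been described in bladders of aged mice.

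RNA of the bladder body of C57BL/6 mice was measured on 1-colour Agilent arrays, with 1 array per mouse, and the labels name no treatment. The groups were 4 MAT males and 4 MAT females, aged 12 months, and 4 AGED males and 4 AGED females, aged 27 to 30 months. The 75th percentile of log2 signal ran from 9.18 in AGED male replicate 1, the dimmest array, to 10.82 in AGED female replicate 3, and 52.3% to 68.2% of probes were well above background. All males were on 1 slide and all females on the other, and on each slide MAT and AGED arrays lay in different rows, so sex and slide, and age and row, cannot be told apart. Markers of the labelled tissue were present on every array, with means over the urothelium list of 5.47 to 6.07 and over the smooth muscle list of 6.41 to 7.04 on the log2 scale described next.

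Signals are log2 values of the processed signal less the 75th percentile of the array, so that 0 is the 75th percentile of an array. Differences between groups are AGED minus MAT as the array labels give them. This direction is opposite to the one in the study's list of genes changed most with age, where the 2 could be compared. Of 10 genes that the study lists with a direction, 8 were tested here under the same name, and by the labels all 8 had the opposite sign in both sexes, among them Chil3 and S100a9, listed as lower with age and higher in AGED males and females here. Some of these signs rest on small differences. F10 stood at 0.12 in males and 0.15 in females, and Gsg1l at -0.98 and -0.23. For both genes the study lists larger changes in each sex, for F10 by far. The study names no probes, so whether the same ones were read is not known. The study names no adjustment of p for its counts of changed genes. These counts have more higher than lower in AGED females and more lower than higher in AGED males. By the labels, at a limma adjusted p under 0.05 and 2-fold, 48 genes were higher and 3 lower in AGED females here. In AGED males 74 were higher and 154 lower. These adjusted counts and those of the study are not like with like, and counts without adjustment are not given by direction here. Nothing about the labels is therefore read from the counts. The study's RT-PCR of receptor genes was not compared with the arrays. Whether the labels or the study's ratios are turned is not settled by the sources used here. If the labels are, every AGED minus MAT sign below reverses.

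Cxcl13, the ligand that draws B cells, differed most between MAT and AGED males among the 8 genes. In MAT males its log2 signal was -0.53, -1.12, -0.46 and -0.22 in replicates 1 to 4. In AGED males it was 5.53, 2.85, 4.45 and 2.0. Every AGED male was above every MAT male, and replicates 1 and 3 of the AGED males were the highest of all 16 arrays. The group means were -0.58 ± 0.38 (SD, n = 4) and 3.71 ± 1.59 (SD, n = 4), a difference of 4.29 or 19.6-fold, which was 3.68 without AGED male replicate 1. The highest AGED male was 11.6-fold above the lowest, against 1.87-fold in MAT males.

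In MAT females the log2 signal of Cxcl13 was 0.90, 0.96, 0.63 and 0.52. In AGED females it was 1.09, 1.60, 1.77 and 1.73. The AGED females again lay above all MAT females, by a narrow margin for replicate 1, and both female groups lay between the MAT and the AGED males. The means were 0.76 ± 0.21 (SD, n = 4) and 1.55 ± 0.31 (SD, n = 4), a difference of 0.79 or 1.73-fold. The spread within each female group, 1.35-fold in MAT and 1.60-fold in AGED, was smaller than in AGED males. The age differences of the sexes, 4.29 and 0.79, are set side by side as a description, because the gene was chosen with them known.

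The promoter of Cxcl13 is shown because this gene carries the largest difference. RefSeq promoter sequences (250 bases before to 50 after the start, build GRCm38.p6) were at hand for 7 of the 9 genes. The Cxcl13 window lies at chr5:95956689-95956988 on the plus strand, and the capitals mark the letters GGGAGATTT, a form of NF-kB-type site, 114 bases before the start and a TATAAA box 46 bases before it.
Cxcl13: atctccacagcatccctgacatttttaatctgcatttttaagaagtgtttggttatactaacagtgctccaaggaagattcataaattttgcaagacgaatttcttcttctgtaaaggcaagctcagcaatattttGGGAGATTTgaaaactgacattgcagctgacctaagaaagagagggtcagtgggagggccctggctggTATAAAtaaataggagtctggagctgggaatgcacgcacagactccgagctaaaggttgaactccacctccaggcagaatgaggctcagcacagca
Both strands were searched, and these motifs were picked after the sequence had been seen. Of 32851 promoters of mouse genes, 0.317% held GGGAGATTT, and among the members Cxcl13 was the gene that did. TATAAA was held by 13.6% of promoters, among them those of Cxcl13 and Lta. The letters GGGNNTTTC, from the more common form of NF-kB-type site, were held by 4.36% of promoters and occurred in that of Ltb alone among the members, at 2 positions on the opposite strand. A match of letters is a description and not a measured site.

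Ccl19, a ligand of Ccr7, had 3 probes, and the brightest stood for the gene. Its log2 signal was -1.62, -1.94, -1.71 and -1.62 in MAT males and -1.18, -1.17, -2.06 and -1.58 in AGED males. It was -0.81, -0.42, -1.0 and -0.95 in MAT females and -1.99, -1.16, -0.82 and -0.40 in AGED females. AGED and MAT arrays overlapped in both sexes, and AGED female replicate 1 was low while the other 7 female arrays lay above all male arrays. The mean difference was 0.22 in males and -0.30 in females, and the latter was 0 without AGED female replicate 1. The other probes gave differences of 0.43 and 0.17 in males and of -0.28 and 0 in females. RefSeq lists Gm2023, which it also calls Ccl19, and pseudogenes of Ccl19 on the same chromosome, and whether the probes also read these is not known from the files.

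Ccl21a, the other ligand of Ccr7, could not be read by its own probe. A probe of Gm13304, a neighbouring gene that RefSeq also calls Ccl21b or Ccl21c, was looked at in its place after its values had been seen. The promoters of Ccl21a (chr4:42773942-42774241, minus strand) and Gm13304 (chr4:42114537-42114836, plus strand) show how alike the copies are, with 3 differences, in capitals, over 299 aligned bases.
Ccl21a: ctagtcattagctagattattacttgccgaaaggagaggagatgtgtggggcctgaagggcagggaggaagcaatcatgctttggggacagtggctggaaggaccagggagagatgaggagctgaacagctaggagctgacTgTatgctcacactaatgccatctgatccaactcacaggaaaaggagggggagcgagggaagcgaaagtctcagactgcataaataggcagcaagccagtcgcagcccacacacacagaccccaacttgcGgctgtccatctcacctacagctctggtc
Gm13304: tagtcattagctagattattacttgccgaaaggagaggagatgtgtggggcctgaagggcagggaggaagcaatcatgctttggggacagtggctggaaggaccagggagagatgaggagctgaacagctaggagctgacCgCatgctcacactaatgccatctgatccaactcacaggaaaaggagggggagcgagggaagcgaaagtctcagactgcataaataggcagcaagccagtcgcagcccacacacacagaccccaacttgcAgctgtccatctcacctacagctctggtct
The promoter of Gm10591 differed from that of Ccl21a by as many bases and that of Ccl21d by 2. Only small shifts without gaps were tried. At the best of these the promoter listed for Ccl21b differed at 199 of 295 bases, so it was not aligned and its likeness is not known. Which copies the probe reads is not known from the files, as probe sequences are not among them.

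The Gm13304 probe gave 6.56, 6.44, 6.16 and 6.53 in MAT males and 5.39, 6.30, 5.24 and 5.62 in AGED males. In MAT females it gave 6.39, 5.89, 6.52 and 6.32, and in AGED females 5.52, 6.46, 6.21 and 5.91. Of the AGED males, 3 lay below every MAT male and replicate 2 lay among them, while the female groups overlapped broadly. The mean difference was -0.79 in males and -0.25 in females, the reverse of the sign seen for Cxcl13. Replicates 1 and 3, the AGED males highest in Cxcl13, were the lowest of the 4 in this probe.

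Cxcr5, the receptor of Cxcl13 carried by B cells and follicular helper T cells, gave a signal near the background in males. Its log2 signal was -6.96, -7.31, -4.40 and -3.45 in MAT males and -4.91, -3.37, -6.20 and -4.61 in AGED males. Replicates 1 and 2 of the MAT males and 1 and 3 of the AGED males were not well above background, so 2 of 4 arrays measured it in each male group. In females it was -2.16, -1.10, -2.85 and -2.27 in MAT and -5.08, -1.84, -1.68 and -3.15 in AGED, well above background on all 8 arrays. MAT and AGED arrays overlapped in both sexes, and AGED female replicate 1 was far below the other females. The difference was 0.75 in males, which rests in part on dim spots, and it ran from 0.16 to 1.45 without single arrays. In females it was -0.84, or -0.13 without AGED female replicate 1. The AGED male with the highest Cxcl13, replicate 1, had Cxcr5 not well above background. That array is the dimmest, and its Cxcr5 of -4.91 was near the -4.61 of replicate 4, which was well above background.

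Ccr7, the receptor of Ccl19 and Ccl21 on naive T cells and mature dendritic cells, gave -0.59, 0.40, -0.87 and 0.66 in MAT males and 0.58, -0.73, -2.54 and -1.16 in AGED males. In MAT females it gave 0.12, 0.74, 1.46 and 0.84, and in AGED females -0.74, 1.62, 0.89 and 0.01. The groups overlapped in both sexes, with AGED male replicate 3 the lowest array and AGED female replicate 2 the highest. The mean was -0.10 ± 0.74 in MAT and -0.96 ± 1.29 in AGED males, and 0.79 ± 0.55 in MAT and 0.45 ± 1.03 in AGED females (SD, n = 4 each). The difference of -0.87 in males and of -0.34 in females was smaller than the SD of the AGED group in either sex, and it was -0.34 in males without AGED male replicate 3 and 0.05 in females without AGED female replicate 1.

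Lta, a subunit of lymphotoxin, was dim but above background on every array. It gave -3.85, -3.86, -3.85 and -4.27 in MAT males and -3.32, -3.24, -3.11 and -3.79 in AGED males. In females it gave -3.23, -3.16, -3.81 and -3.74 in MAT and -3.96, -3.57, -3.40 and -3.51 in AGED. The male groups did not overlap, although AGED male replicate 4 came close to the MAT males, and the female groups overlapped. The difference was 0.59 or 1.51-fold in males and -0.13 in females.

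Ltb, the membrane-anchoring subunit of lymphotoxin, gave -0.44, -0.63, 0.64 and 0.85 in MAT males and 2.07, 1.21, -0.20 and -0.50 in AGED males. In MAT females it gave 1.93, 2.04, 1.68 and 1.43, and in AGED females 0.11, 2.03, 1.93 and 2.39. AGED male replicates 1 and 2 lay above all MAT males while 3 and 4 lay among them, and AGED female replicate 1 was again low among females. The difference was 0.54 in males, or 0.07 without AGED male replicate 1, and -0.16 in females, or 0.34 without AGED female replicate 1.

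Ltbr, the lymphotoxin receptor of stromal cells, varied little within the MAT groups. It gave 3.48, 3.51, 3.46 and 3.40 in MAT males and 4.33, 3.60, 3.57 and 3.26 in AGED males. In females it gave 3.26, 3.17, 3.23 and 3.13 in MAT and 3.57, 3.20, 3.14 and 3.52 in AGED. The groups overlapped in both sexes, and AGED male replicate 1, which was also highest in Cxcl13 and is the dimmest array, stood above all others. The difference was 0.23 in males, 0.01 without AGED male replicate 1 and -0.12 after another background correction (normexp), and 0.16 in females.

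Tnfsf13b, the gene of BAFF, gave -0.10, -0.15, -0.17 and -0.11 in MAT males and -0.08, 0.31, -0.01 and -0.03 in AGED males. In females it gave 0.37, 0.11, 0.14 and 0.11 in MAT and 0.23, 0.34, 0.27 and 0.73 in AGED. AGED males lay above all MAT males, replicate 1 by a small margin, while in females MAT replicate 1 lay among the AGED arrays. The difference was 0.19 or 1.14-fold in males and 0.21 or 1.16-fold in females.

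**Figure D1:**
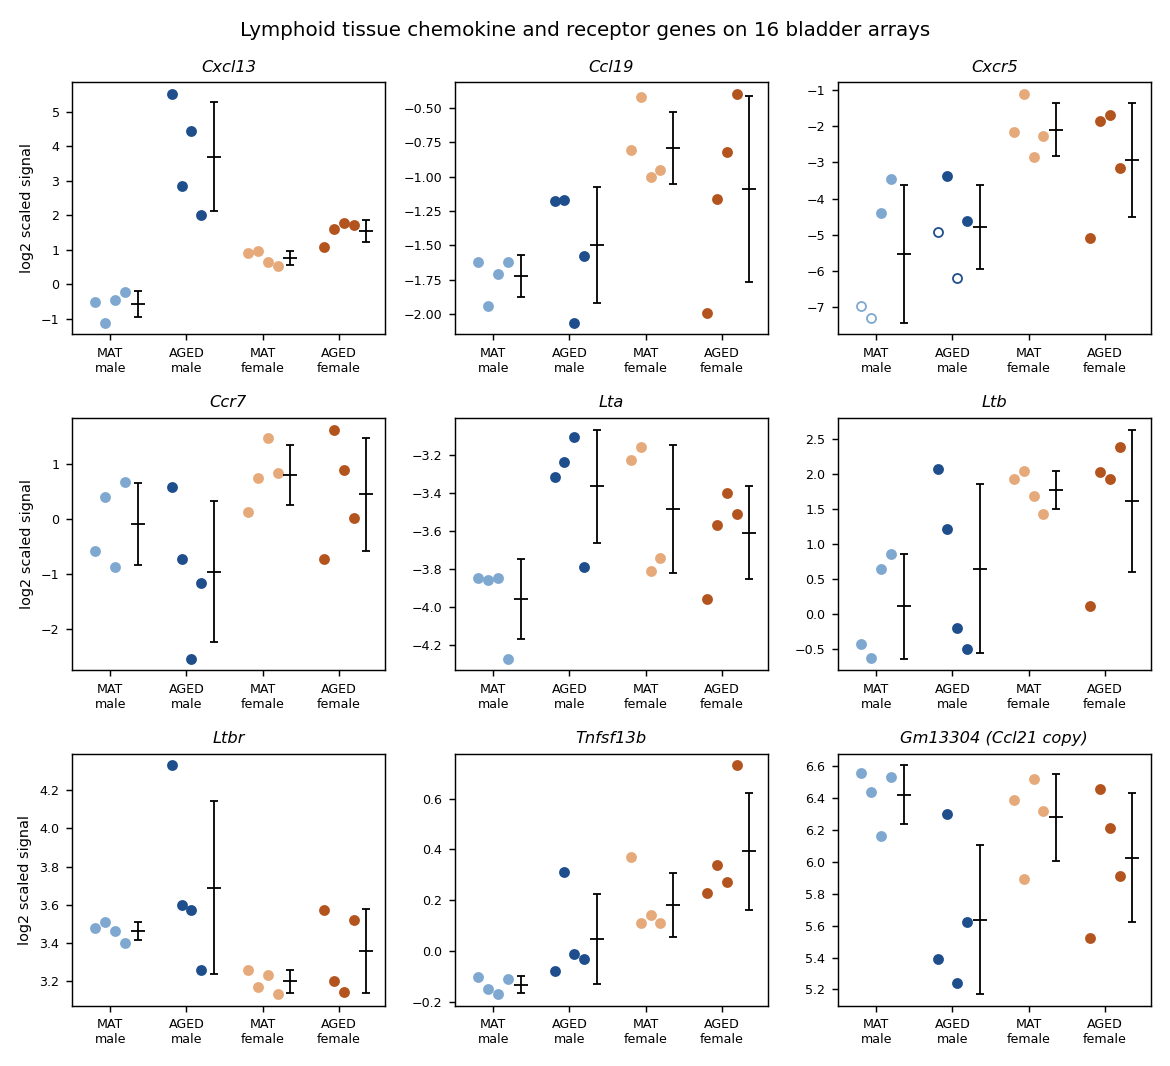
Log2 scaled signal (vertical axis, 0 is the 75th percentile of an array) of the 8 measured genes and the Gm13304 probe in the 4 groups (horizontal axis). Each point is 1 array with replicates 1 to 4 from left to right, open points are not well above background, and the black marks give mean ± SD; for Cxcl13 the AGED males sit between 2.0 and 5.53, above all MAT males, which sit between -1.12 and -0.22.

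Held to the thresholds used for all genes, adjusted p under 0.05 and at least 2-fold, 1 of the 8 genes (Cxcl13) counted as higher in AGED males, beside 0.276% of all genes, and 0 as lower, beside 0.575%. In females 0 were called, beside 0.179% of all genes called higher and 0.0112% called lower. All AGED arrays exceeded all MAT arrays for 3 of 8 genes in males (Cxcl13, Lta and Tnfsf13b) and for 1 of 8 in females (Cxcl13), where 3.87% and 5.05% of all genes did so. For Lta and Tnfsf13b this rests on the scaling of AGED male replicate 1, the dimmest array. Before scaling its Lta signal of 58.09 was below the highest MAT male, 72.37. Its Tnfsf13b signal of 549.4 was below every MAT male, the lowest at 861.5. The median difference over the 8 genes was 0.38 in males and -0.14 in females, against 0 and -0.01 over all genes tested. Cxcl13 no longer counted in males when each sex was fitted alone or under the methods' t-test with Benjamini-Hochberg adjustment. Nothing is read from these counts, since the genes were selected with the same contrasts in view.

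Males and females were compared over both ages, a contrast that does not share the AGED minus MAT differences that chose the genes. Cxcr5 and Ltb were called, and both were lower in males. Cxcr5 differed by -2.63 (SE 0.64), 6.21-fold, with a limma adjusted p of 0.0176, and 7 of 8 female arrays were above all 8 male arrays. After normexp the difference was -1.03 and still called. The fold is set against male arrays of which 4 of 8 measured the gene. Ltb differed by -1.32 (SE 0.40), 2.49-fold, with a limma adjusted p of 0.0461, and 7 of 8 female arrays were above 7 of 8 male arrays. These 2 of 8 genes called as higher in females stand beside 1.2% of all genes, and 0 of 8 called as higher in males beside 0.575%. Ltb was near the threshold and was called without MAT male replicate 4, AGED male replicate 1 or 2, or AGED female replicate 1, but not without any other single array, with a highest limma adjusted p of 0.0893. With the replicate number as a block Ltb was not called either (limma adjusted p = 0.082). Cxcr5 kept its call without each array in turn, with a highest limma adjusted p of 0.0389.

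Of the other members, Ccl19 at -0.67 (SE 0.20, limma adjusted p = 0.043) and Tnfsf13b at -0.33 (SE 0.09, limma adjusted p = 0.0308) passed the adjusted p without reaching 2-fold, both lower in males. For Ccl19, 7 of 8 female arrays were above all male arrays, and for Tnfsf13b all 8 were above 7 of the 8 male arrays. Leaving out single arrays raised the limma adjusted p of Ccl19 above 0.05 for 13 of 16 arrays, up to 0.0845 without MAT female replicate 2, and that of Tnfsf13b for 6 of 16, up to 0.0711 without MAT female replicate 1. After normexp Tnfsf13b stood at -0.19 (limma adjusted p = 0.247), and the other Ccl19 probes stood at -0.41 and -0.34. With no fold limit 4 of 8 genes were called as higher in females, beside 3.88% of all genes, and of these Cxcr5 alone kept its call without each array in turn. Ccr7 at -1.15 (SE 0.43) had a limma adjusted p of 0.0908, and without AGED male replicate 1 it was called, at -1.41 and 0.0241. Cxcl13 at 0.41, Ltbr at 0.30 and Lta at -0.12 had limma adjusted p of 0.501, 0.136 and 0.606, and Lta was 0.17 after normexp. The value of Cxcl13 averages opposite differences, -1.34 in MAT and 2.16 in AGED arrays, given as a description. Within the ages, the male minus female difference of Cxcr5 was -3.43 in MAT and -1.84 in AGED, and that of Ltb -1.67 and -0.97. For Ccl19 no MAT male overlapped a MAT female, the highest male at -1.62 and the lowest female at -1.0.

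Markers of other cells moved with this sex comparison. Of the B cell list, 3 of 7 tested genes were called lower in males, of the plasma cell list 3 of 5, and of the adipocyte list 6 of 7, beside 1.2% of all genes, with medians of -1.45, -2.21 and -3.49, against 0.08 over all genes. Single arrays weighed on these calls. Left out in turn, 11 of 16 arrays undid the limma call of Ms4a1, 13 that of Mzb1, 9 that of Pou2af1 and 3 that of Jchain. MAT female replicate 1 undid those of the adipocyte genes Cfd and Cidec, and AGED female replicate 4 that of Cfd. The B cell gene Blk and the adipocyte genes Adipoq, Plin1, Lep and Retn kept theirs. Their part in the differences of Cxcr5 and Ltb was not tested. In whole tissue, fewer cells of a type and less RNA per cell cannot be told apart.

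To see what varied with each member between mice, deviations of the 16 arrays from their group means were correlated with those of 15753 other genes with a symbol, and genes among the 3 highest Pearson r are named as a description. For Cxcr5 they included the B cell genes Spib (r = 0.963, Spearman's rho 0.932) and Ms4a1 (r = 0.947, rho 0.924). The r with Spib was 0.987 in males, 0.944 in females, and 0.964 without the 2 arrays farthest from the median of Cxcr5. With the mean of the B cell list it was 0.956. In females Cxcr5 was thus high in the same mice as B cell transcripts, while in males 4 of the 8 values of Cxcr5 behind r were not well above background.

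Ltb went with Gbp8 (r = 0.934), the lymphocyte receptor gene Slamf6 (r = 0.918) and Fam78a (r = 0.908), and its r with the B cell list was 0.813 and with the T cell list 0.795. Ccr7 went with the T cell costimulatory receptor gene Tnfrsf18 (r = 0.951), P2ry10 (r = 0.923) and Uba7 (r = 0.922), and with the T cell list at 0.860. Ccl19 went with Mns1 (r = 0.925), Ncapd2 (r = 0.916) and Twf2 (r = 0.911), and among members its highest r was with Ltb, at 0.775. Spearman's rho for these 9 genes lay between 0.844 and 0.947.

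Cxcl13 went with Lyrm2 (r = 0.913, rho 0.682), Klra7 (r = 0.909, rho 0.647) and Gzma (r = 0.905, rho 0.629), the latter pair genes of natural killer and cytotoxic cells. Between AGED and MAT males these genes stood at -0.01, -1.86 and -0.76. The likeness was carried by the males, where r was 0.977, 0.975 and 0.966, while in females it was 0.0358, 0.252 and -0.0679. With its own receptor Cxcr5 the r of Cxcl13 was 0.0407 over all arrays, -0.0946 in males and 0.819 in females, and with the B cell list 0.242 over all arrays, 0.143 in males and 0.903 in females. With the dendritic cell list it was -0.654, -0.887 in males and -0.00603 in females. With the T cell list it was 0.601, and -0.0128 without the 2 AGED males farthest from the median.

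Ltbr went with Slc25a4 (r = 0.969), Cdc42 (r = 0.954) and Mcam (r = 0.943). Lta went with Pde9a (r = 0.816), Sfmbt2 (r = 0.789) and Pid1 (r = 0.781), and Tnfsf13b with Ly6h (r = 0.862), Soga3 (r = 0.857) and Sfrp4 (r = 0.837). For Ly6h, Soga3 and Sfrp4 Spearman's rho was 0.865, 0.6 and 0.568. Without the 2 arrays farthest from the median of Tnfsf13b their r was 0.843, 0.613 and 0.581. The arrays share a group and a slide, and the named genes are the highest of many, so no p is given.

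**Figure D2:**
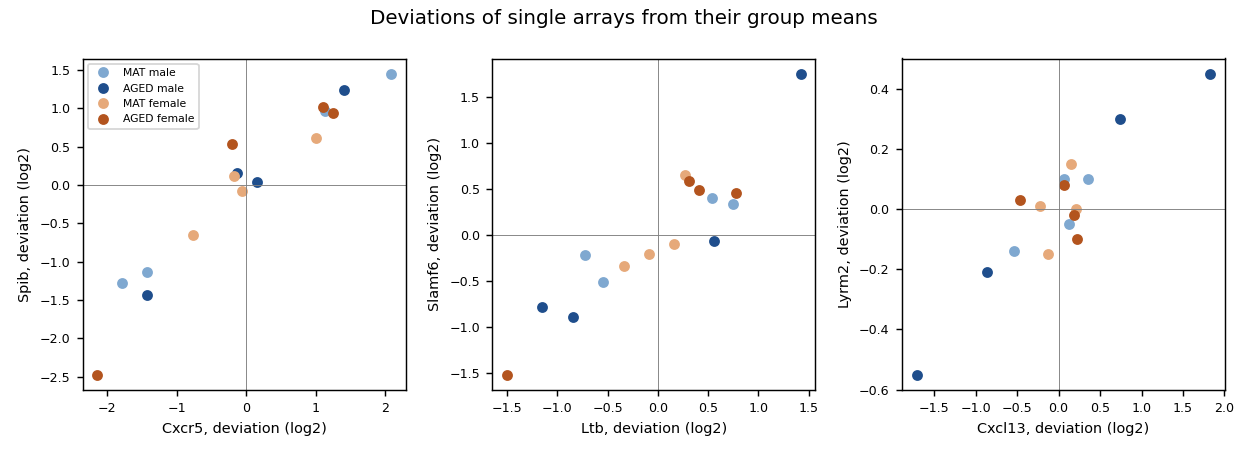
Deviation of single arrays from their group mean in log2 units for Cxcr5 against Spib, Ltb against Slamf6 and Cxcl13 against Lyrm2. Each point is 1 of 16 arrays, coloured by group; the Cxcr5 points follow a line in all 4 groups (r = 0.963), while the ends of the Cxcl13 plot are AGED males.

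Other genes of the same pathways were taken from lists, 55 genes in all, of which 52 had a probe and 49 were tested. By limma 0 of 49 were called in AGED against MAT males and 0 in females. After normexp 2 were called in males, both lower in AGED. These were Ackr4 at -1.04 (limma adjusted p = 0.0404) and Relb at -1.07 (limma adjusted p = 0.00386). Without that correction Relb stood at -0.26. At an unadjusted p under 0.05 there were 9 in males and 4 in females, 18.4% and 8.16% of the 49, beside 16.2% and 10.5% of all genes. The median difference over the 49 genes was 0.07 in males and 0.01 in females, against 0 and -0.01 over all genes. The methods' t-test with no adjustment called 0 in males and 2 in females, Ackr4 and Il21, but Il21 passed the filter through the MAT females and was measured on 0 of 4 AGED females, so it is not read as a call. In the comparison of males with females over both ages 4 were called, Glycam1, Ccr6 and Tnfrsf13c (3 of 49) as lower in males, beside 1.2% of all genes, and Chst4 (1 of 49) as higher, beside 0.575%. Glycam1 was measured on 3 of 8 male arrays and passed the filter through the females, so the 3 is a description.

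The medians in males and females were 0.25 and 0.30 for the lymphotoxin and noncanonical NF-kB list, 0.02 and -0.45 for the BAFF and APRIL family, and -0.10 and -0.06 for other homeostatic chemokines and receptors. They were 0.15 and 0.15 for addressins, -0.18 and -0.22 for lymphoid stroma and inducer genes, and 0.34 and -0.07 for germinal centre genes. No list was tested as a set.

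In the lymphotoxin and noncanonical NF-kB list, 8 of 13 genes were above 0 in males, beside 50.2% of all genes, and 12 of 13 in females, beside 49.1%, with Birc2 in females at 0.003. The largest differences were those of Tnfsf14, encoding the lymphotoxin-related ligand LIGHT, at 0.72 (SE 0.46), and the TNF receptor gene Tnfrsf1b at 0.52 (SE 0.24) in males, and of Tnfrsf1b at 0.61 (SE 0.24) and Tnf at 0.60 (SE 0.68), or 0.05 without AGED female replicate 4, in females. None of these passed the test, with limma adjusted p of 0.451, 0.296, 0.395 and 0.828. Tnfsf14 was well above background on 2 MAT and 1 AGED male arrays, and its difference in males was 0.15 without that AGED array, replicate 1.

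In the BAFF and APRIL family, the BAFF receptor gene Tnfrsf13c stood at 0.70 (SE 0.75) in males, and between 0.20 and 1.26 without single arrays. In females it stood at -0.45 (SE 0.75), or 0.21 without AGED female replicate 1. Tnfrsf13b stood at -0.24 and -0.33, and the plasma cell receptor gene Tnfrsf17 at 0.02, or -0.04 with median scaling, and -0.64. Tnfrsf13c was lower in males than in females over both ages by -1.86 (SE 0.53, 3.62-fold, limma adjusted p = 0.0354; 6 of 8 female arrays above all males), with means of -3.86 in MAT males, -3.16 in AGED males, -1.43 in MAT females and -1.88 in AGED females. That call was lost without 10 of the 16 arrays in turn, with adjusted p by limma of up to 0.071 without MAT female replicate 2. Tnfsf13, the gene of APRIL, had no matched probe.

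Among the other homeostatic chemokines and receptors, Ackr4, a scavenger receptor of Ccl19 and Ccl21, stood at -0.98 (SE 0.32) in males and at 1.03 (SE 0.32) in females. The limma adjusted p was 0.138 in males and 0.261 in females, and 0.0973 for the difference of the age changes. In females all 4 AGED arrays exceeded all 4 MAT arrays. Cxcr4, the receptor of Cxcl12, stood at 0.68 in males and -0.45 in females, and Ccr6, a receptor of B cells and lymphoid inducer cells, at -0.52 and -1.17. Ccr6 was lower in males over both ages by -1.62 (SE 0.36, 3.08-fold, limma adjusted p = 0.0114; 6 of 8 female arrays above all males). For Ccl20, the ligand of Ccr6, no array gave a signal well above background, and Ccl21b and Ccl21c had no matched probe.

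Of the addressins and adhesion genes, which let lymphocytes enter through high endothelial venules, Chst4 stood at -0.82 in males and 0.57 in females, and Glycam1 at -0.41, or 0.05 after normexp, and -1.03, or -0.37 without AGED female replicate 1. The sex comparison called Chst4 at 1.45 (SE 0.35, 2.73-fold, limma adjusted p = 0.0171; 6 of 8 male arrays above all females). Glycam1, a mucin of these venules, was well above background on all 8 female arrays but on 2 MAT and 1 AGED male arrays. It passed the filter through the females, so no size or p of its sex difference is given. Chst4 was measured on 6 of 8 male and 5 of 8 female arrays.

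In the list of lymphoid stroma and inducer genes, Il7, a stromal cytokine of lymphocytes, stood at -0.55 (SE 0.15, limma adjusted p = 0.0708) in males, where all AGED arrays were below all MAT arrays, and at 0.06 in females. Tnfsf11 stood at 0.77 in males, where 1 MAT and 2 AGED arrays were well above background. In females it stood at -0.29, or 0.03 after normexp and 0.26 without AGED female replicate 1. The follicular dendritic cell and B cell gene Cr2 stood at -0.50 and -0.66, and Pdpn at 0.20, or -0.07 after normexp, and 0.48. Of the germinal centre and follicular helper genes, Icos stood at 0.88 in males, or 0.03 without AGED male replicate 1, and at -0.07 in females. Il21r stood at 0.34 in males, or -0.30 without the same array, and at 0.52 in females. Il21 was not well above background on any MAT male or AGED female array. It passed background on AGED male replicate 1 alone among the males and on all 4 MAT females, which were at least 1.59-fold above the AGED females. Cd40lg passed background on 0 arrays.

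Markers of immune cells were read beside the members. The mean over the 7 tested B cell genes was -3.82, -4.49, -2.72 and -2.04 in MAT males and -2.52, -2.13, -3.81 and -3.15 in AGED males. It was -1.26, -0.49, -2.0 and -1.69 in MAT females and -3.49, -1.13, -1.23 and -1.69 in AGED females. MAT and AGED arrays overlapped in both sexes and 0 of the 7 genes were called with age, among them the brightest, Cd22, at 0.17 in males, or -0.48 after normexp, and -0.39 in females. Cd22 alone of the 7 was higher in males than in females over both ages, at 0.33, against a list median of -1.45. Whether its probe follows B cells in this tissue was not tested. AGED male replicates 1 and 3, highest in Cxcl13, held the second highest and the lowest B cell mean of their group.

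The plasma cell list gave -2.02, -3.47, -1.01 and -1.08 in MAT males, 0.48, -0.36, -2.56 and -0.32 in AGED males, 0.82, 1.67, -0.15 and 0.86 in MAT females and -1.63, 0.44, 1.24 and 0.20 in AGED females. Of its 5 genes, all above 0 in males and below 0 in females, 0 were called with age. The brightest was Jchain, at 1.14 (SE 0.83) in males, or 0.45 without MAT male replicate 2 and 1.91 without AGED male replicate 3, and -1.0 (SE 0.83) in females, or -0.44 without AGED female replicate 1, and over both ages it was lower in males by -2.21 (SE 0.58, 4.61-fold, limma adjusted p = 0.0251; 7 of 8 female arrays above all males). Without MAT female replicate 1 or 2 or AGED female replicate 3 the limma adjusted p was 0.0504, 0.0508 or 0.0523. The T cell list gave -1.41, -1.48, -1.45 and -0.90 in MAT males and 1.10, -0.69, -1.66 and -1.30 in AGED males, and overlapped between ages in both sexes. AGED male replicate 1 was highest in this list as in Cxcl13. Its brightest gene, Lck, stood at 1.10 (SE 0.49, limma adjusted p = 0.281) in males, or 0.44 without AGED male replicate 1.

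The dendritic cell list gave -1.47, -1.04, -1.52 and -1.51 in MAT males and -2.26, -1.44, -2.26 and -1.55 in AGED males. AGED male replicates 1 and 3 were the lowest, the same that were highest in Cxcl13, and 0 of 6 genes were called, with Cd209a at -0.81 in males and -0.96 in females. The macrophage list, with Csf1r brightest, had 0 of 7 genes called and a mean of 2.88 in AGED male replicate 1 against 1.57 to 1.71 in the other AGED and 1.56 to 1.80 in the MAT males. Its means in AGED females, 1.93 to 2.77, lay above those in MAT females, 1.36 to 1.71.

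The neutrophil list was the single marker list with genes called with age. S100a9 was higher by 3.08 (SE 0.56, 8.48-fold, limma adjusted p = 0.0125) and S100a8 by 2.43 (SE 0.49, 5.40-fold, limma adjusted p = 0.0211) in males. All AGED arrays exceeded all MAT arrays for both genes in both sexes. The study lists S100a9 among its genes changed most with age, with the opposite direction. The marker lists were chosen with earlier results of these data known. These calls and their p are therefore a description and not a test of the list. The call of S100a8 was lost without MAT male replicate 3 (limma adjusted p = 0.0741) or 4 (limma adjusted p = 0.0504). Both genes lost their calls with each sex fitted alone (limma adjusted p = 0.144 for S100a9 and 0.157 for S100a8) and under the methods' t-test with Benjamini-Hochberg adjustment (0.299 and 0.329), and S100a8 stood at 1.33 after normexp. Csf3r, the brightest of the list, stood at -0.04, or 0.11 after normexp. Its signal lay between 6.17 and 6.78 on all arrays, while that of S100a8 lay between -4.14 and 0.38. Whether the Csf3r probe follows neutrophils in this tissue was not tested. In females S100a9 stood at 1.62 and S100a8 at 1.12 without passing the limma test, and S100a9 was called by the methods' t-test with no adjustment. The list mean was -0.19, 0.04, -0.94 and -1.0 in MAT males and 1.66, 0.52, 1.90 and 0.68 in AGED males, so AGED male replicates 1 and 3, highest in Cxcl13, were also highest here. Over all arrays the r of Cxcl13 with this list was 0.306, -0.0108 without the 2 farthest arrays, 0.551 in males and -0.79 in females. The part of these cells in the Cxcl13 difference was not tested. Ngp and Mmp8 passed background on 0 arrays.

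The medians in males and females were 0.42 and -0.45 for the B cell list, 1.34 and -0.73 for the plasma cell list, 0.74 and -0.21 for the T cell list, -0.44 and -0.25 for the dendritic cell list and 0.36 and 0.74 for the macrophage list. They were 1.91 and 1.21 for the neutrophil list, -0.29 and -1.12 for the adipocyte list, and between -0.31 and 0.08 for lymphatic endothelium, urothelium, smooth muscle and blood.

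The remaining lists had 0 genes called with age by limma. Lymphatic endothelium, whose cells secrete Ccl21, had group means between -3.36 and -3.18, with Lyve1 at 0.50 in males, or -0.56 after normexp, and 0.95 in females. Adipocyte genes had means of -0.99 ± 1.82 in MAT and -1.41 ± 1.83 in AGED males and 1.97 ± 0.85 in MAT and 0.97 ± 0.47 in AGED females (SD, n = 4), with Fabp4 brightest at -0.29 and -0.01. Upk1a of the urothelium stood at -0.08, or 0.06 after normexp, and 0.12. Cnn1 of smooth muscle stood at 0.04, or -0.33 after normexp, and 0.18, and Hba-a2 of blood at -0.08 and -0.29.

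**Figure D3:**
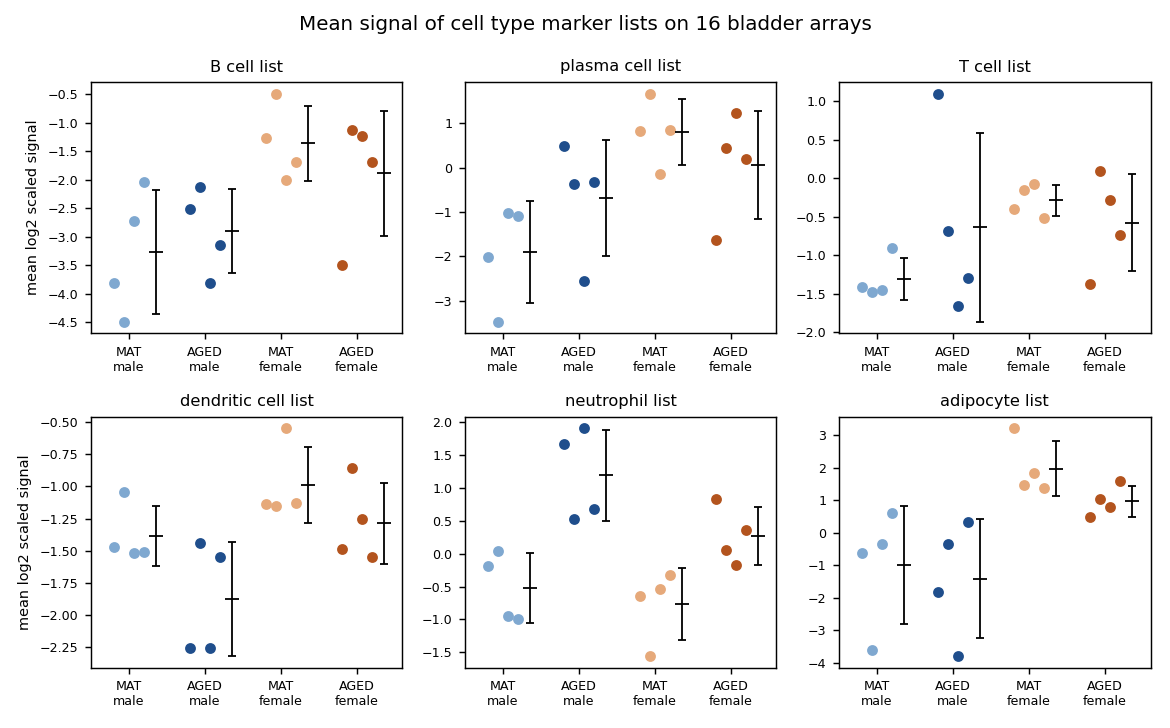
Mean log2 scaled signal (vertical axis) over the tested genes of 6 marker lists in the 4 groups (horizontal axis), with 1 point per array, replicates 1 to 4 from left to right, and mean ± SD in black. B cell means overlap between MAT and AGED in both sexes and AGED female replicate 1 lies lowest of the females at -3.49, while the neutrophil means of AGED males, 0.52 to 1.90, lie above those of MAT males.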

How the data were processed

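Total RNA of 16 bladders was measured on 1-colour Agilent arrays, and the files hold the scanner output of each array. Per the file headers, the processed intensity of a spot was made by the authors with Feature Extraction 10.7.3.1 by background subtraction, while the processing notes give version 9.1. The deposited value table holds log2 values that the authors scaled to the 75th percentile of each array; set against scanner values scaled in the same way, the largest median absolute difference of an array was 0.00296. It served as an alternative.

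From the processed intensity, log2 less the 75th percentile of the array was computed. Control spots and 399 values marked as outliers by the scanner software were left out, and no spot was saturated. Of 55681 probes, 26582 were named through accessions in RefSeq (GRCm38.p6; the array design used mm9) and others kept the name in the file. Probes well above background on fewer than 4 arrays were dropped, which left 36972 probes and 26781 genes, each read by its brightest probe. A fold against a group with no measured array is a lower bound: the bright group's mean against, per array, the higher of the lowest measured signal and the probe's own.

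All 4 groups entered 1 model in limma 3.58.1 (R 4.3.3, R package data.table at 1.17.8), with Benjamini-Hochberg adjustment over 26781 genes and a call at adjusted p under 0.05 and at least 2-fold. The contrasts were AGED against MAT within each sex and males against females over both ages. The code was tested on simulated data. The number of arrays limits the precision of every value. Python 3.11.15, pandas 2.3.3 and matplotlib 3.10.9 served for promoters and figures. The gene lists and the members were chosen with earlier results of these data known. Named were all called genes of a list, the 2 genes of each pathway list that differed most with age in each sex, and the brightest gene of each marker list; a few genes of the lists count in their totals but are not reported here. Alternatives were other scalings, background corrections and filters, the methods' t-test, fits of each sex alone, array weights, a replicate block and leaving out each array.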

Additional observations from a re-analysis of the deposited data

Results flagged for a closer look

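In each group of 4 arrays, the gap between the most distant array and its neighbour was divided by the range, and groups where this ratio exceeded the critical value of Dixon's test are given here. Of 228 groups looked at, 15 did so, and by chance about 1 in 20 would. Among the members, Lta stood apart in MAT male replicate 4 (ratio 0.975; -4.27 against -3.86 to -3.85) and Tnfsf13b in MAT female replicate 1 (ratio 0.871; 0.37 against 0.11 to 0.14). The mean over the members was low in AGED female replicate 1 (ratio 0.894; -0.85 against 0.16 to 0.28).

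AGED male replicate 1 stood apart in Il21 (ratio 0.938; -1.59 against -7.82 to -7.44), in Csf1r (ratio 0.911; 6.76 against 5.94 to 6.01) and in the macrophage list (ratio 0.893; 2.88 against 1.57 to 1.71). It also had the lowest 75th percentile of its group (ratio 0.877; 9.18 against 9.90 to 10). Other single genes were Tnfsf11 in AGED female replicate 1 (ratio 0.836; -7.07 against -5.12 to -4.73), Jchain in AGED male replicate 3 (ratio 0.878; 0.12 against 3.02 to 3.43) and Upk1a in AGED female replicate 3 (ratio 0.93; 7.27 against 7.84 to 7.89).

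The remaining list means were those of T cells in MAT male replicate 4 (ratio 0.879; -0.90 against -1.48 to -1.41) and of dendritic cells in MAT male replicate 2 (ratio 0.896; -1.04 against -1.52 to -1.47) and MAT female replicate 3 (ratio 0.967; -0.55 against -1.15 to -1.13). Macrophages in AGED female replicate 4 (ratio 0.845; 2.77 against 1.93 to 2.06) and smooth muscle in AGED male replicate 4 (ratio 0.84; 6.76 against 6.97 to 7.01) complete the list. The cause of these values was not tested.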

How the results depend on the processing

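By the thresholds for all genes 1 member (Cxcl13) counted in males, as a description of the contrast that chose it; this was 0 under the methods' t-test with Benjamini-Hochberg adjustment and 0 with each sex fitted alone. Without single arrays its difference ran from 3.68 to 4.86. Of the members, 2 were called between the sexes; this was 1 with no filter on dim probes, 1 with a filter on all 16 arrays, which dropped Cxcr5, 4 with no fold limit, and 1 to 3 without single arrays, the 3 without AGED male replicate 1. Ltb lost its call with no filter (limma adjusted p = 0.0539, over all alternatives 0.00619 to 0.0893), and Ccr7 was called with array weights (-1.45, limma adjusted p = 0.0193). The Gm13304 probe stood at -1.01 in males without AGED male replicate 2 and there passed the thresholds for all genes. Pathway genes called were 2 in males after normexp (Ackr4 and Relb) and 2 in females under the unadjusted t-test, of which Il21 was measured on 0 of 4 AGED females.

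Over all genes, 228 were called in males. This was 753 after normexp, 552 with no filter, 496 under the unadjusted t-test and 0 after its adjustment, 461 with no fold limit, 11 with each sex alone and 123 (without MAT male replicate 3) to 377 (without AGED male replicate 2). In females 51 were called, and 18 with no filter, 394 under the unadjusted t-test and 1 after adjustment, 99 with each sex alone, 194 with array weights and 1 (without MAT female replicate 1) to 120 (without AGED male replicate 1). Between the sexes 476 were called, and 916 with no filter, 170 with the filter on all arrays and 3295 with no fold limit. Normexp moved the median of all genes to 0.119 with age in males and 0.183 between the sexes, from 0.001 and 0.081. Of the calls in males 32.5% were higher in AGED (74 higher and 154 lower), but 8.5% after normexp (64 and 689). If the labels are turned, the higher and lower counts exchange places. Of the calls between the sexes 32.4% were higher in males, but 21.5% after quantile normalization and 16.5% after normexp.

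With the replicate number as a block, members called between the sexes were 1, as Ltb lost its call, and genes called in females 3. Same-numbered arrays of both ages correlated at -0.147 to 0.0683, so no pairing by number was seen, though these few values cannot exclude one. The replicate number is also the column of the array on its slide, and the number and the column cannot be told apart.

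Signs that changed belong to genes without a call. After normexp these were Lta between the sexes (0.17) and, in males, Ltbr (-0.12), Glycam1 (0.05), Pdpn (-0.07), Cd22 (-0.48), Csf3r (0.11), Lyve1 (-0.56), Upk1a (0.06) and Cnn1 (-0.33), and in females Tnfsf11 (0.03). Median scaling turned Tnfrsf17 (-0.04) and Cnn1 (-0.02) in males, and quantile normalization Cnn1 in males (-0.19) and Csf3r in females (0). Array weights turned Tnfrsf17 (-0.19), Glycam1 (0.04) and Il21 (-0.06) in males and Icos (0.05) in females, a floor Tnfsf11 in females (0.10), and the mean of the probes Csf1r in females (0.04). Without single arrays the male values ran from -0.17 to 0.82 for Tnf, -0.35 to 0.39 for Tnfrsf17, -1.13 to 0.13 for Glycam1, -0.25 to 1.83 for Il21, -0.30 to 0.74 for Il21r, -0.03 to 0.37 for Cd22, -0.11 to 0.01 for Csf3r, -0.12 to 0.18 for Cnn1 and -0.35 to 0.16 for Hba-a2. The female values ran from -0.75 to 0.21 for Tnfrsf13c, -0.53 to 0.26 for Tnfsf11, -0.02 to 0.15 for Il7, -0.26 to 0.19 for Icos, -0.39 to 0.08 for Lck, -0.17 to 0.07 for Csf1r and -0.16 to 0.23 for Fabp4. The t-test and the fits of each sex alone have no comparison between the sexes. The cause of these changes was not tested. Sex cannot be told apart from slide, nor age from array row, and whole tissue does not show which cells carry a transcript.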
